A study of Mus musculus with 17 samples.

Results

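The genes described here are 10 heat shock and chaperone genes of mouse pancreatic islets, Hspa4, Hspa4l, Hspa8, Hspa1b, Hsph1, Hsp90aa1, Hspb1, Hspd1, Dnajb1 and Bag3, out of 18193 genes named on the arrays. They were found by symbol: a probe set (a group of short probes on the array that reads 1 transcript) counted as a member when the array's annotation gave it 1 gene symbol and that symbol was on the list, which gave 29 probe sets. All 10 are grouped as cytosolic heat shock genes, but the protein of Hspd1, HSP60, works in mitochondria. Islets, the clusters of hormone-secreting cells of the pancreas, were isolated from C57BL/6 mice in 6 batches, each a pool from 4 mice that was divided over the times. They were otherwise untreated and were kept in F12K medium with fetal bovine serum, and the labels give no genotype change, age or sex. RNA was read on 17 arrays: 6 from islets 24 h after isolation, 6 from islets 48 h after isolation and 5 from islets at 0 h. No 0 h array of batch 5 is among the 17.

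Heat shock proteins are molecular chaperones, which bind unfolded stretches of other proteins and let them fold, be moved or be degraded. HSP70 proteins do this in cycles of ATP hydrolysis, in which J-domain proteins such as that of Dnajb1 bring the client and the HSP110 proteins and BAG proteins release the nucleotide. Under proteotoxic stress the transcription factor HSF1 binds heat shock elements, alternating repeats of GAA and TTC in promoters, and raises the inducible members of the family.

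Values are log2 signals after RMA, in which 1 unit is a 2-fold change, and a difference carries limma's standard error and a Benjamini-Hochberg adjusted p over all 45037 probe sets. A gene passed when the adjusted p was under 0.05, and each gene was read from its probe set with the highest mean over the 17 arrays, called its representing probe set. By that probe set all 10 genes lay above the median of the whole table, 3.52, on every array. Of the islet hormone genes, Ins2 averaged 13.76 at 0 h, 13.73 at 24 h and 13.69 at 48 h, and Gcg averaged 12.82, 12.77 and 12.66 at those times. The highest value of the whole table was 13.81, so Ins2 lay near the top of the measured range. Whether its signal was saturated was not tested. Other hormone genes were lower in culture: Sst fell by 1.27 at 24 h (adjusted p 0.00272) and by 1.31 at 48 h (adjusted p 0.00249), and Ppy fell by 1.47 (adjusted p 0.0116) and Pyy by 0.78 (adjusted p 0.0472) at 24 h. Levels of different genes are not set against each other, because probe sets differ in brightness for the same amount of RNA. The tissue was measured in bulk, so fewer cells of a type and less RNA per cell cannot be told apart. The p-values measure the spread between batches of pooled islets.

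The promoters of 6 genes are shown for the HSF1 motif and for the likeness of a gene pair, Hspa1b and Hspa1a. Each is the 250 bases before a transcription start, 5′ to 3′ on the gene's strand, from RefSeq on the GRCm38.p6 build, and capitals mark matches to GAANNTTC or TTCNNGAA. The windows lie at chr17:34959239-34959488 (minus strand) for Hspa1b, chr17:34972157-34972406 (minus) for Hspa1a, its paralog, chr1:55087933-55088182 (minus) for Hspd1, chr5:135887669-135887918 (plus) for Hspb1, chr11:53300480-53300729 (minus) for Hspa4 and chr7:128523333-128523582 (plus) for Bag3.
Hspa1b: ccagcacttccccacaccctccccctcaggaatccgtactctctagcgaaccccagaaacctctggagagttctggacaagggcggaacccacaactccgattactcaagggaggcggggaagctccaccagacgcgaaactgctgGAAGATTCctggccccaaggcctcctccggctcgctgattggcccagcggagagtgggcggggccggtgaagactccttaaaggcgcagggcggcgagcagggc
Hspa1a: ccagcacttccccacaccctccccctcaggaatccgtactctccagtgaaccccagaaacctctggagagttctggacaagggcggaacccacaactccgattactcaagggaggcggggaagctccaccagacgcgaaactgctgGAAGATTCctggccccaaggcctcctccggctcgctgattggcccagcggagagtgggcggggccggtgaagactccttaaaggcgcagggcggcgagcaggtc
Hspd1: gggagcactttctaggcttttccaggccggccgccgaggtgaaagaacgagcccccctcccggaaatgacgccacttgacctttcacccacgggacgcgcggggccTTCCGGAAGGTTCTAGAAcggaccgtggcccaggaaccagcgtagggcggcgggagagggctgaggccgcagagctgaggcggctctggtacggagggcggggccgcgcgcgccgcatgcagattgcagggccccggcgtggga
Hspb1: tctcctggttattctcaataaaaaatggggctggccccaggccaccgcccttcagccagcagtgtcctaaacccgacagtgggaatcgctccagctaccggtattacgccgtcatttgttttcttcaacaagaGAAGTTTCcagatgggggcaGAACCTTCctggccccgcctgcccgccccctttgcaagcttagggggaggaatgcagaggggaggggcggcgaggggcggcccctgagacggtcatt
Hspa4: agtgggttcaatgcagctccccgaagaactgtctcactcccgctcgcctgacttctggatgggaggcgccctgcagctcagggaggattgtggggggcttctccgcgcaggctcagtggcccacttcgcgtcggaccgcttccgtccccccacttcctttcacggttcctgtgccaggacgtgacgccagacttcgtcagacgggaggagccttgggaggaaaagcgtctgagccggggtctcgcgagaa
Bag3: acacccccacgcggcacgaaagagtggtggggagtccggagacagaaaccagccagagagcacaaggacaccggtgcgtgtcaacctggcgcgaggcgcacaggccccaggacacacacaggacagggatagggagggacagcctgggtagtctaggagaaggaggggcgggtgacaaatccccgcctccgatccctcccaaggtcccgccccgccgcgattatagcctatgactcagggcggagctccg

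Both motifs read the same on either strand, and matches may overlap. Of the 8 listed genes with a promoter window, 4 held a match in at least 1 window, Hspa1b, Hsph1, Hspb1 and Hspd1, against 14.5% of 27025 genes. By window, 5 of their 11 windows held a match, against 12.8% of 32851 windows of the same length. The window of 250 bases was chosen after matches were seen, so these shares are given as a description. Hspa8 and Hsp90aa1 had no window. A longer motif of 3 units, GAANNTTC followed by NNGAA or TTCNNGAA followed by NNTTC, was found in 0.466% of all windows. Among the windows printed above, only that of Hspd1 held it, with 2 matches. The 3 overlapping matches of the Hspd1 window to GAANNTTC or TTCNNGAA start 144, 139 and 134 bases before the start. Hspd1 has 2 listed starts, the window printed is the one with matches, and the window of the other start, chr1:55088244-55088493, held 0. Hspd1 and Hspe1, the gene of its cochaperonin HSP10, are transcribed away from each other, and their windows share 215 bases, so both windows hold the same matches. The match of Hspa1b starts 104 bases before the start, and its window is identical to that of Hspa1a at 247 of 250 bases (98.8%). A match is a run of letters and does not show that HSF1 was bound there.

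By their representing probe sets, Hspa4, Hspd1 and Bag3 passed as higher after 24 h of culture than at 0 h, and Hspb1 passed as lower. After 48 h Hspa4 and Bag3 passed as higher and Hspb1 as lower. These changes were between 1.27-fold and 1.72-fold in size. The call of Hspa4 was lost at both times with the mean of its probe sets, dim ones included, and its probe set that was brightest at 0 h did not pass. At 24 h the calls of Hspd1 and Hspb1 were also lost under some alternatives given below. Between 48 h and 24 h 0 of the 10 genes passed. The inducible HSP70 gene Hspa1b had the widest differences in its means among the 10, -1.05 at 24 h and -1.55 at 48 h, and did not pass, with values that spread widely within each time.

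At 24 h 4 of the 10 genes passed, against 12.1% of all genes. Of these 3 were higher, against 5.44%, and 1 was lower, against 6.66%. At 48 h 3 of 10 passed, against 11.7% of all genes, 2 of them higher (6.45%) and 1 lower (5.27%). Genes with a mean above the table median, which all 10 are, passed more often: 7.96% higher and 8.96% lower at 24 h, and 9.45% higher and 6.51% lower at 48 h. The median difference of the 10 genes was 0.04 at 24 h and 0.16 at 48 h, beside -0.01 and -0.02 over all genes. For 48 h against 24 h, limma passed 0 of 10 genes against 0.759% of all genes, and 1 of the 10, Hspa4l, had an unadjusted p under 0.05. The count at 48 h was 5 under 4 alternative settings, which added Hspd1 and either Hspa8 or Hspa1b. Under these settings 3645 to 4008 probe sets passed in all, against 3815 in the main fit.

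**Figure D1:**
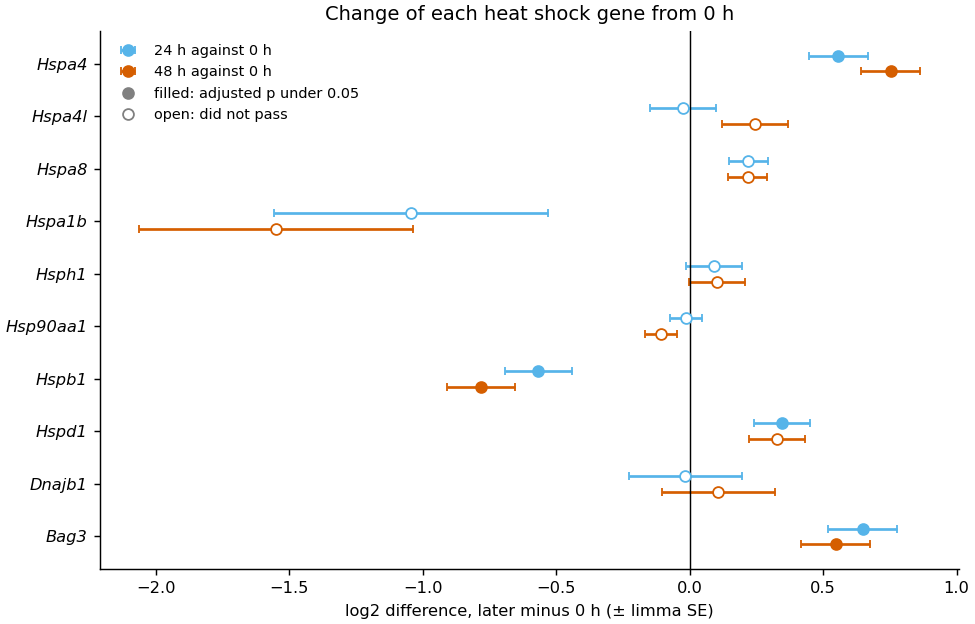
Log2 difference of each gene's representing probe set (horizontal axis, ± limma's standard error), 24 h minus 0 h in blue and 48 h minus 0 h in red, with filled points for adjusted p under 0.05. Hspa4 and Bag3 lie to the right of 0 at both times, Hspb1 to the left, and the error bars of Hspa1b are the widest.

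Hspa4 encodes an HSP110 protein, a nucleotide exchange factor for HSP70. Its representing probe set, 1416146_at, read 8.93 at the lowest, 9.40 at the median and 9.50 at the highest of the 24 h arrays, and 9.33, 9.50 and 9.70 on the 48 h arrays, against 8.74, 9.01, 8.46, 8.78 and 8.89 at 0 h. All 48 h arrays lay above all 0 h arrays, and at 24 h 1 array, batch 6, lay within the 0 h range. The gene rose 1.47-fold at 24 h (log2 difference 0.56 ± 0.11, SE; adjusted p 0.00234) and 1.69-fold at 48 h (0.75 ± 0.11; adjusted p 0.000181), and it was higher in 5 of 5 batches at each time.

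A second Hspa4 probe set of like brightness, 1435194_at, did not show this rise. It averaged 8.91 ± 0.16 at 24 h (SD, n = 6) and 9.06 ± 0.23 at 48 h (SD, n = 6), against 9.04 ± 0.12 at 0 h (SD, n = 5), with differences of -0.13 (adjusted p 0.565) and 0.02 (adjusted p 0.944). On each array, the first probe set minus the second was 0.14 to 0.63 at 24 h and 0.25 to 0.83 at 48 h, against -0.48 to -0.06 at 0 h. The ranges at 24 h and 48 h did not overlap that at 0 h. This comparison was chosen after the values were seen and is given without a test. The arrays do not say which of the 2 probe sets follows the whole transcript, and with the mean over all 4 probe sets Hspa4 did not pass (0.09, adjusted p 0.609, at 24 h; 0.19, adjusted p 0.169, at 48 h).

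The 2 further HSP110 genes did not pass by their representing probe sets. Hspa4l, known for its part in sperm and in osmotic stress, differed by -0.02 ± 0.12 at 24 h (adjusted p 0.950) and 0.24 ± 0.12 at 48 h (adjusted p 0.273). With the mean over its 5 probe sets it passed at 24 h as lower (-0.29, adjusted p 0.0429). Its 6 arrays at 48 h sat between 7.73 and 7.91, closer together than the 24 h arrays (7.18 to 7.89) and the 0 h arrays (7.29 to 7.99). Another of its 5 probe sets, 1449010_at, fell at 24 h by 0.37 (adjusted p 0.0158), without overlap between the times, and was not called at 48 h (-0.21, adjusted p 0.193).

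Hsph1, which encodes HSP105, differed by 0.09 ± 0.10 at 24 h (adjusted p 0.716) and by 0.10 ± 0.10 at 48 h (adjusted p 0.643). Its dimmer probe set 1423566_a_at read 6.12 to 7.62 on the 24 h arrays and 6.81 to 7.68 on the 48 h arrays, against 5.83 to 6.65 on those of 0 h. The 48 h and 0 h values of that probe set did not overlap, and it missed the threshold (0.75 ± 0.24, adjusted p 0.0667).

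Hspa8, the constitutive HSP70 of the cytosol, had a representing probe set that was higher in 5 of 5 batches at both times and missed the threshold. Its 1420623_x_at read 11.93 to 12.23 at 24 h and 12.02 to 12.17 at 48 h, against 11.64 to 12.01 at 0 h. The differences were 0.22 ± 0.07 at 24 h (adjusted p 0.0748) and 0.22 ± 0.07 at 48 h (adjusted p 0.0772), and the 48 h and 0 h arrays did not overlap. It passed at 24 h without the 24 h array of batch 2 (adjusted p 0.0391), under a trended robust prior (0.0414) and after repeated quantile normalisation (0.0383). Without _x_at and _s_at probe sets, which leaves 1420622_a_at to represent it, it also passed at 24 h (0.42, adjusted p 0.0139). At 24 h its probe set 1420622_a_at rose by 0.42 (adjusted p 0.0131), while the dim 1431182_at fell by 0.51 (adjusted p 0.0376). Probe sets with the suffix _x_at may also read related transcripts, so the values of Hspa8 are uncertain to that extent.

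Hspa1b encodes the stress-inducible HSP70 of the cytosol. Its values on the 0 h arrays were 9.47, 7.32, 6.79, 7.64 and 7.49 in batches 1, 2, 3, 4 and 6. The lowest, median and highest values were 5.49, 6.29 and 8.27 at 24 h and 5.54, 6.03 and 7.72 at 48 h. The high arrays were batch 1 at 0 h, batches 1 and 6 at 24 h, and batch 3 at 48 h, and all 3 times overlapped.

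The difference of Hspa1b was -1.05 ± 0.51 at 24 h (adjusted p 0.272) and -1.55 ± 0.51 at 48 h (adjusted p 0.0711). In batches with both times it was lower in 4 of 5 batches at each, with changes of -1.25 to 0.23 at 24 h and -3.48 to 0.93 at 48 h. Leaving out the 48 h array of batch 3 gave a difference at 48 h that passed, -1.86 (adjusted p 0.0252), as did leaving out the 24 h array of batch 1, which alters only the estimate of the spread (adjusted p 0.0487). Leaving out the 0 h array of batch 1 gave -1.12 (adjusted p 0.185). The mean linear signal at 48 h was 0.314 times that at 0 h, 0.222 times without the 48 h array of batch 3 and 0.526 times without the 0 h array of batch 1. The rule in the study's design, a mean signal more than 4-fold from that of 0 h, took 0 of the 10 genes at 24 h, against 0.357% of all genes when counted in either direction, and 0 of 10 at 48 h, against 0.429%. Without the 48 h array of batch 3 Hspa1b would have been taken as a gene under 0.25 times its 0 h signal.

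All 3 probe sets of Hspa1b moved together, as did the single probe set of Hspa1a, the neighbouring copy on chromosome 17. Over the 17 arrays, after subtraction of each time's mean, Hspa1b correlated with Hspa1a at r = 0.94 (rho = 0.81) and at r = 0.88 without the 2 arrays farthest from the median of Hspa1b. Hspa1a read 7.08, 5.36, 4.24, 4.54 and 4.87 at 0 h in the same order of batches, so batch 1 was high for both. The copies are nearly identical, probes of either may read both transcripts, and the correlation is given as a description.

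**Figure D2:**
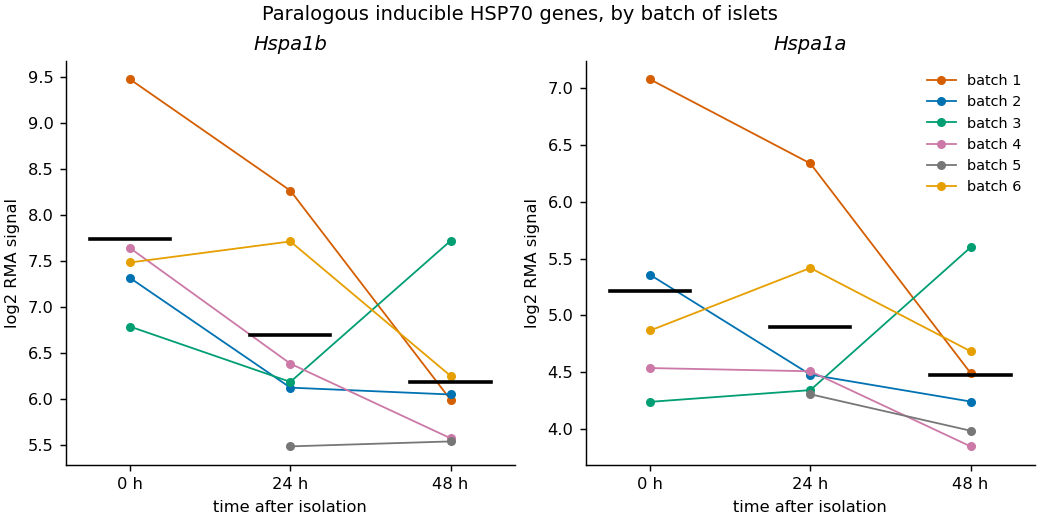
Log2 signal (vertical axis) of Hspa1b on the left and Hspa1a on the right at the 3 times, with 1 line per batch of islets and black bars for the mean of each time. Batch 1 is highest at 0 h and 24 h and batch 3 at 48 h in both panels.

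Within a time, the standard deviation of Hspa1b was 0.967, at the 99.8th percentile among the 11910 genes above the table median, whose median was 0.189. Dnajb1 had 0.408, at the 96.8th percentile. At the other end were Hsp90aa1, with 0.0719 and the 0.613th percentile, and Hspa8, with 0.112 and the 7.66th percentile. Immediate early genes, which cells switch on within minutes of a stimulus, were also uneven at 0 h: the mean of their list ran from 4.94 to 6.25, with the highest value in batch 1. Their part in the spread of Hspa1b was not tested.

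Dnajb1 encodes the main stress-inducible J-domain partner of HSP70. At 0 h it read 10.50, 10.50 and 10.32 in batches 1, 2 and 6 but 9.29 and 9.42 in batches 3 and 4. The ranges were 9.59 to 10.44 at 24 h and 9.79 to 10.42 at 48 h, inside the 0 h range. Its differences were -0.02 ± 0.21 at 24 h (adjusted p 0.980) and 0.11 ± 0.21 at 48 h (adjusted p 0.840), and both changed sign when single arrays were left out. The same low pair of batches had the lowest 0 h values of the Hsp90aa1 probe set 1437497_a_at, which read 9.78, 9.67, 8.41, 8.48 and 8.78 in batches 1, 2, 3, 4 and 6.

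Hsp90aa1 encodes the inducible form of HSP90, the chaperone of kinases and steroid receptors. Its representing probe set lay between 10.85 and 11.03 at 24 h and between 10.67 and 10.94 at 48 h, against 10.89 to 11.03 at 0 h. The differences were -0.01 ± 0.06 (adjusted p 0.943) and -0.11 ± 0.06 (adjusted p 0.319). The direction at 24 h turned under other settings: it was 0.0007 after median centring and 0.09 with the mean of all probe sets. The spread at 0 h of 1437497_a_at, an SD of 0.657, and of 1426645_at, 0.509, stands beside 0.0534 for the representing probe set of the same gene. A further 2 of the 5 probe sets, 1433251_at and 1441827_x_at, were under the table median on all 17 arrays.

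**Figure D3:**
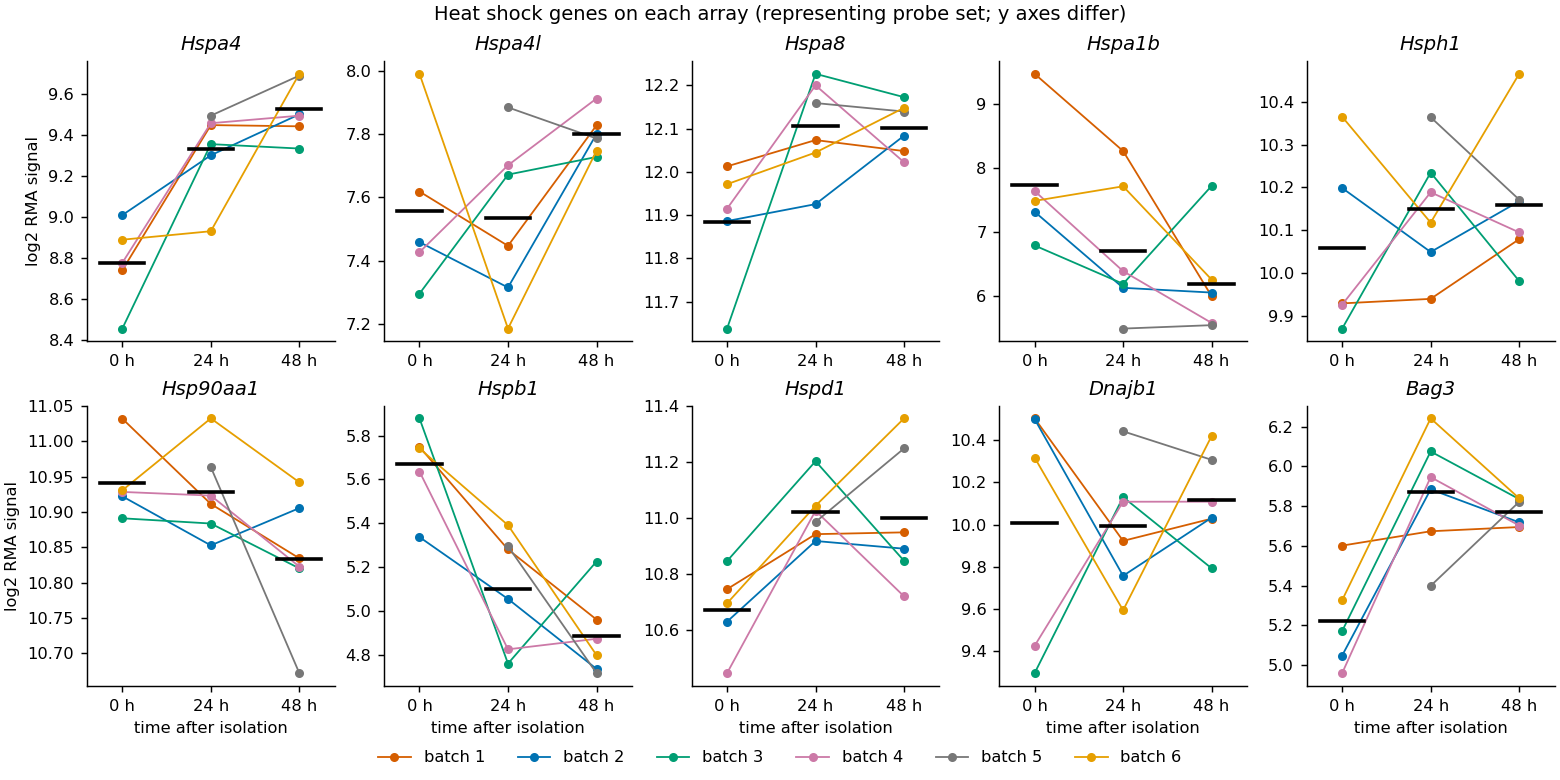
Log2 signal (vertical axes, which differ between panels) of each gene's representing probe set at the 3 times, with 1 line per batch of islets and black bars for the means. Hspa4 and Bag3 are higher and Hspb1 lower after 0 h in each batch measured at 0 h, and the lines of Hspa1b and Dnajb1 cross.

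Bag3 encodes a cochaperone that joins HSP70 to small heat shock proteins and to selective autophagy. Its single probe set read 5.40, 5.92 and 6.24 at the lowest, median and highest of the 24 h arrays and 5.69, 5.77 and 5.84 of the 48 h arrays, against 5.60, 5.05, 5.17, 4.96 and 5.33 at 0 h. All 48 h arrays were above all 0 h arrays, and at 24 h the array of batch 5 lay inside the 0 h range. The gene rose 1.57-fold at 24 h (0.65 ± 0.13, adjusted p 0.00268) and 1.46-fold at 48 h (0.55 ± 0.13, adjusted p 0.0108), and was higher in 5 of 5 batches at each time.

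Hspb1 encodes a small heat shock protein that holds unfolded proteins and binds actin, and that endothelial and muscle cells are known to express. It read 4.76, 5.17 and 5.39 at the lowest, median and highest of the 24 h arrays and 4.72, 4.84 and 5.23 of the 48 h arrays, against 5.75, 5.34, 5.88, 5.64 and 5.74 at 0 h. The 48 h and 0 h arrays did not overlap. Hspb1 fell by 0.57 ± 0.13 on the log2 scale at 24 h (adjusted p 0.00675) and by 0.78 ± 0.13 at 48 h (adjusted p 0.000508), and was lower in 5 of 5 batches. Its other probe set, 1422943_a_at, fell by 0.69 at 48 h (adjusted p 0.0122) and differed by -0.42 at 24 h (adjusted p 0.147), so without _x_at and _s_at probe sets the gene did not pass at 24 h and the 4 genes that did were all higher.

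Markers of endothelial cells moved the same way as Hspb1. Of 11 such genes, 6 fell at 24 h and 9 at 48 h, and 0 rose, where 6.66% of all genes were lower at 24 h and 5.27% at 48 h. The mean of the list lay between 5.03 and 5.26 at 24 h and between 4.54 and 4.95 at 48 h, against 5.82 to 6.14 at 0 h. Of its defining genes, Pecam1, Cdh5 and Tie1 averaged under the table median at all 3 times, while Kdr averaged 7.35 at 24 h and 6.52 at 48 h, against 8.39 at 0 h. The part of endothelial cells in the fall of Hspb1 was not tested. Markers of acinar cells, the enzyme-secreting cells of the pancreas, also fell: 1 of 13 at 24 h and 7 of 13 at 48 h, with list means of 3.92 to 7.11 and 3.55 to 5.31, against 5.33 to 8.43 at 0 h. The counts that follow stand beside 5.44% of all genes higher and 6.66% lower at 24 h, and 6.45% higher and 5.27% lower at 48 h. Of 12 markers of macrophages and dendritic cells, 1 rose and 7 fell at 24 h, and 2 rose and 4 fell at 48 h. Of 10 markers of fibroblasts, stellate cells and pericytes, 0 rose and 4 fell at 24 h, and 3 rose and 1 fell at 48 h. Of 5 markers of duct cells, 1 rose and 0 fell at 24 h, and 1 rose and 0 fell at 48 h. Of 10 markers of islet endocrine cells, 0 rose and 6 fell at 24 h, and 0 rose and 3 fell at 48 h. Of 6 markers of lymphocytes, limma passed 0 at either time, where 0 at 24 h and 1 at 48 h had an unadjusted p under 0.05.

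Hspd1 encodes HSP60, the folding chamber of the mitochondrial matrix. It read 10.92, 11.01 and 11.20 at the lowest, median and highest of the 24 h arrays and 10.72, 10.92 and 11.36 of the 48 h arrays, against 10.75, 10.63, 10.85, 10.45 and 10.70 at 0 h. The 24 h and 0 h arrays did not overlap, and the 48 h and 0 h arrays did. Hspd1 rose 1.27-fold at 24 h (0.35 ± 0.10, adjusted p 0.0460) and differed by 0.33 ± 0.10 at 48 h (adjusted p 0.0605). With the batch as a block the difference at 24 h was 0.33 (adjusted p 0.0648), and the call was also lost in 12 of 17 fits that left out 1 array, where the highest adjusted p was 0.138, without the 0 h array of batch 4. At 48 h it passed without the 48 h array of batch 4 (adjusted p 0.0274). It was higher in 5 of 5 batches at each time.

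Counted by overlap, at 24 h the values of 1 of the 10 genes, Hspd1, did not overlap those at 0 h, against 8.78% of all genes. At 48 h there were 4, Hspa4, Hspa8, Bag3 and Hspb1, against 9.17%, and between 48 h and 24 h there were 0, against 1.57%. By probe set, 7 of 29 passed at 24 h, against 8.58% of all probe sets, with 4 higher (3.86%) and 3 lower (4.72%). At 48 h 4 of 29 passed, against 8.47%, with 2 higher (4.67%) and 2 lower (3.8%). Between 48 h and 24 h, 0 of 29 passed, against 0.444%. Within Hspa8, probe sets that passed at 24 h pointed in opposite directions.

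**Figure D4:**
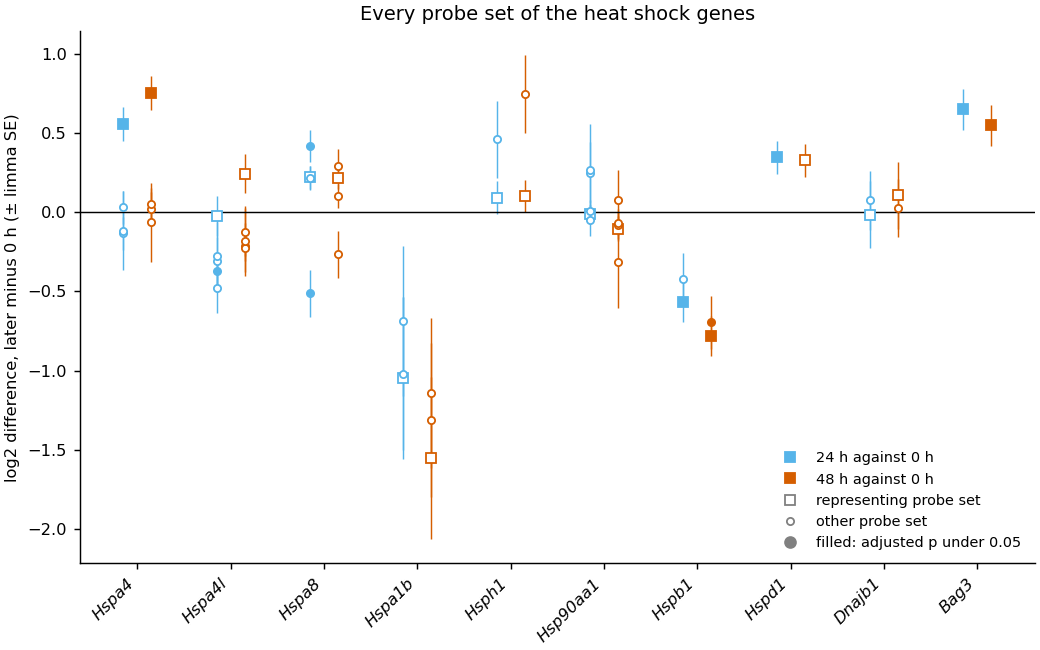
Log2 difference from 0 h (vertical axis, ± limma's standard error) of all 29 probe sets by gene, 24 h in blue and 48 h in red, with squares for the representing probe set and filled symbols for adjusted p under 0.05. The probe sets of Hspa1b lie together below 0, and those of Hspa4 and Hspa8 fall on both sides of 0.

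Among 56 other chaperone and cochaperone genes, 52 were measured. At 24 h 7 of them rose and 3 fell, against 5.44% of all genes higher and 6.66% lower. At 48 h 15 rose and 2 fell, against 6.45% and 5.27%. The counts by class in the next paragraphs stand beside the same shares at each time. The median difference of the 52 genes was 0.15 at 24 h and 0.11 at 48 h. For 48 h against 24 h, limma passed 0 of 52, and 5 had an unadjusted p under 0.05.

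Genes of mitochondrial chaperones and proteases, which fold and clear proteins of the matrix, held 3 of the 7 that rose at 24 h and 5 of the 15 at 48 h, out of 7 measured. Lonp1, the matrix protease, rose by 1.23 ± 0.13 at 24 h and by 0.98 ± 0.13 at 48 h (adjusted p 2.74e-06 and 4.51e-05). Hspa9, the mitochondrial HSP70, rose by 0.86 at 24 h and 0.66 at 48 h, and Grpel1, its nucleotide exchange factor, by 0.46 and 0.34. Dnaja3, its J-domain partner, rose by 0.42 at 48 h. Hspe1, the partner of Hspd1, rose by 0.30 at 48 h (adjusted p 0.0364), beside 0.27 at 24 h (adjusted p 0.0583). The mean of the list lay between 9.34 and 9.54 at 24 h and between 9.23 and 9.57 at 48 h, against 8.93 to 9.05 at 0 h, with no overlap.

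Of 8 measured J-domain cochaperones of the cytosol and nucleus, 2 rose and 1 fell at 24 h, and 4 rose and 1 fell at 48 h. The 4 that rose at 48 h were Dnajb2, by 0.54, Dnajb6, by 0.30, Dnajc7, by 0.30, and Dnaja2, by 0.29. Dnaja4 fell by 0.45 at 24 h and by 0.34 at 48 h. Cochaperones of HSP90 that passed were Cacybp, up by 0.34 at 24 h and 0.27 at 48 h, and Fkbp4, up by 0.43 at 48 h with an adjusted p of 0.0499. Stub1, the ubiquitin ligase CHIP that marks HSP70 clients for degradation, rose by 0.29 at 24 h and 0.33 at 48 h, and Bag5 rose by 0.48 at 48 h.

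TRiC, the cytosolic folding chamber for actin and tubulin, had 2 subunit genes that rose at 48 h, Cct3 by 0.34 and Tcp1 by 0.20, and 0 that passed at 24 h, where 3 had an unadjusted p under 0.05. Hspa12b, an HSP70 relative known from endothelial cells, fell by 0.63 at 24 h and by 0.61 at 48 h. Cryab, a small heat shock protein, fell by 0.73 at 24 h and averaged under the table median at 24 h and 48 h. Of 4 listed genes of heat shock factors and their binding protein, 3 were measured: Hsf2, Hsf4 and Hsbp1. Of these 3, 0 passed at 24 h or 48 h against 0 h, where 0 had an unadjusted p under 0.05. Hsf2 averaged under the table median of 3.52 at all 3 times, and Hsf4 averaged 3.84 over the 17 arrays, near that median. A change in either could have been missed at such low signals. Hsf1 was not among the 3 measured, so whether its RNA changed was not tested.

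**Figure D5:**
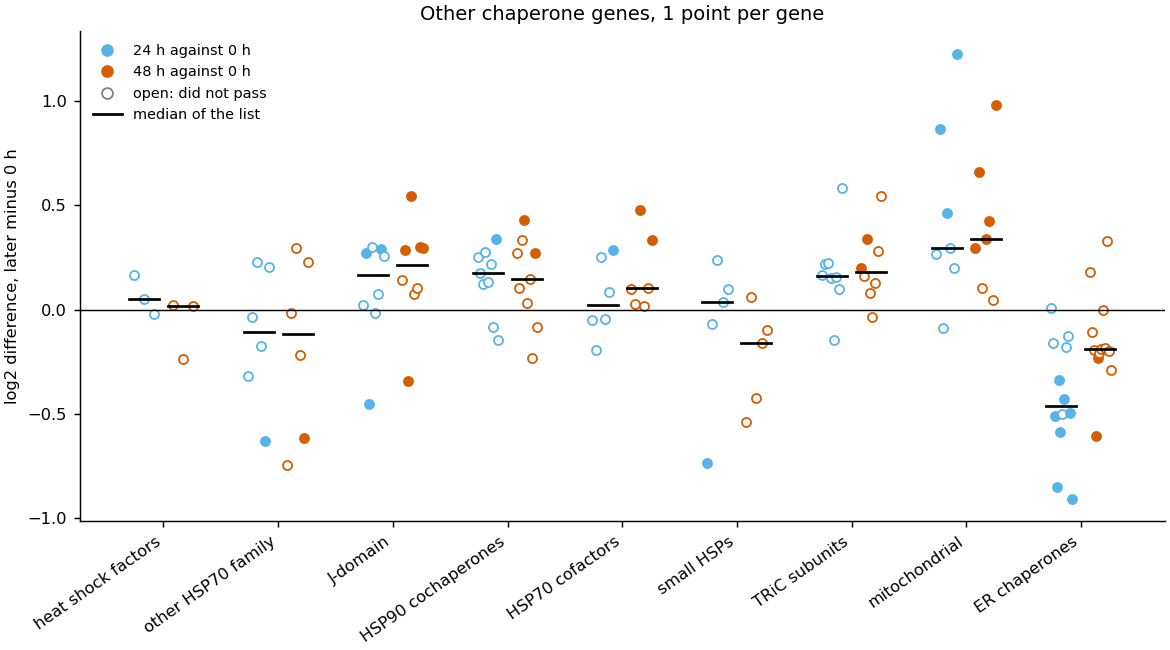
Log2 difference from 0 h (vertical axis) of other chaperone genes by class, 1 point per gene, 24 h in blue and 48 h in red, with filled points for adjusted p under 0.05 and black bars for medians. The highest points are Lonp1, at 1.23 at 24 h and 0.98 at 48 h, and Hspa9, at 0.86 at 24 h, and 7 of the ER chaperones are filled below 0 at 24 h.

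The genes most like each member that passed were the 3 with the highest Pearson correlation over the 17 arrays, among genes above the table median. These correlations describe arrays that share batches and times and carry no p. For Hspa4 they were 4930526I15Rik (r = 0.965), Ubxn1 (0.963) and Psmc1 (0.950). Hspb1 was most like Mfge8 (0.904), Ppp3cb (0.900) and Plpp1 (0.876), and Hspd1 most like Slc25a25 (0.942), Snrnp70 (0.940) and Ufsp2 (0.923). For Bag3 they were Rgs17 (0.936), Fosl2 (0.926) and Inpp5f (0.891). Hspa1b, added after its values were seen, was most like Hspa1a (0.910), Amot (0.895) and Rbp4 (0.800). Without the 2 arrays farthest from each member's median, these correlations were between 0.707 and 0.954. After subtraction of each time's mean they were between 0.456 and 0.937. The correlations of Hspb1 were then 0.611 with Mfge8, 0.616 with Ppp3cb and 0.456 with Plpp1.

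The 3′ minus 5′ signal of the actin control averaged 2.10 ± 0.15 at 24 h (SD, n = 6) and 2.02 ± 0.13 at 48 h (SD, n = 6), against 2.14 ± 0.11 at 0 h (SD, n = 5). The lowest median correlation of an array with others of its time was 0.987, for the 0 h array of batch 3, followed by 0.988 for the 24 h array of batch 5. Without both arrays, 4 genes passed at 24 h and 4 at 48 h, where Hspa1b joined (-1.79, adjusted p 0.0389).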

How the data were processed

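The deposited table holds log2 signals for 45101 probe sets of a mouse expression array, normalised with RMA by the authors, per the submitters' processing notes. The sources used here name no version of RMA, and the log base was inferred from values of 1.55 to 13.81. The 64 control probe sets were left out. Of 45037 tested, 34945 had 1 gene symbol, 932 had several and 9160 were unlisted. With limma 3.58.1 in R 4.3.3, 1 mean per time was fitted to 17 arrays, followed by eBayes, and p-values were adjusted by Benjamini-Hochberg over all probe sets. The number of arrays limits the precision. The scripts were tested on simulated data. Replicate numbers mark batches that share a pool of islets, per the series' design text. Deviations of same-batch arrays from their time's mean correlated at a median r of 0.00545 (16 pairs, -0.159 to 0.275), and the blocked fit was an alternative.

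The members and gene lists were chosen with earlier results of these data known. Named genes were all members, the 3 genes most like each member that passed, and up to 4 of each chaperone list (3 of the ER and immediate early lists) that passed, by size. Lists of markers, immediate early genes and ER chaperones were counted the same way. The comparison of the Hspa4 probe sets, the shares for genes above the table median, the Hspa1b likeness, the omission of the arrays that correlated least and the 250-base promoter window were chosen after values or matches were seen. The source table also holds the 50 bases after each start, which were not searched.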

Additional observations from a re-analysis of the deposited data

Results flagged for a closer look

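In 30 groups, 1 for each of the 10 genes at each time, 3 held an array farther from the rest than Dixon's 95% critical value allows, a gap that chance gives in about 5% of groups. Hspa4 read 8.93 on the 24 h array of batch 6, against 9.30 to 9.50 on the other 24 h arrays. Hspa1b read 7.72 on the 48 h array of batch 3, against 5.54 to 6.26 on the others. Hsp90aa1 read 11.03 on the 0 h array of batch 1, against 10.89 to 10.93 on the others.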

How the results depend on the processing

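Over the fits that left out 1 array each, 3 to 4 of the 10 genes passed at 24 h, 3 to 4 at 48 h, and 0 for 48 h against 24 h. With the batch as a replicate block the counts were 3, 3 and 0, where Hspd1 at 24 h was the only call among the 10 genes that changed. At 48 h 5 genes passed with array weights and with a filter on level, which added Hspa1b and Hspd1, and 5 with a trended robust prior and with median centring, which added Hspa8 and Hspd1. Of all probe sets, 4008 passed at 48 h with array weights, 3645 with the trended robust prior and 3840 with median centring, against 3815 in the main fit. With the filter on level, which tests fewer probe sets, 3684 passed. The design's 4-fold rule took 1 gene, Hspa1b, at 48 h without the 48 h array of batch 3, and 0 in the other fits that left out an array. At 24 h, Hspa8 was gained under the trended robust prior (5 genes in all), after repeated quantile normalisation and without _x_at and _s_at probe sets, and Hspa4l with the mean of probe sets. Hspd1 at 24 h was lost in the 5 complete batches (adjusted p 0.0512) and after repeated quantile normalisation (0.0601), and Hspb1 without _x_at and _s_at probe sets (-0.42, adjusted p 0.153). The mean of probe sets lost Hspa4 at both times and gained Hspd1 at 48 h (adjusted p 0.0415). Directions turned only for differences that had not passed. For 48 h against 24 h, Hspa8 was 0.0009 in the 5 complete batches, 0.0223 after median centring, 0.0009 with the mean of probe sets and 0.0083 without the 2 arrays that correlated least; Hspd1 was 0.0068 after median centring; and Hsph1 was -0.0168 after quantile normalisation was repeated. For 24 h against 0 h, Hsp90aa1 was 0.0007 after median centring and 0.0917 with the mean of probe sets, which also gave Dnajb1 as 0.0295. For 48 h against 0 h, Hspa4l was -0.0992 with the mean of probe sets and Dnajb1 was -0.0720 without those 2 arrays. With 1 array left out, the differences ran from -0.094 to 0.085 for Hspa4l, -0.034 to 0.0097 for Hsp90aa1 and -0.19 to 0.11 for Dnajb1 at 24 h against 0 h, and from -0.072 to 0.23 for Dnajb1 at 48 h against 0 h. For 48 h against 24 h they ran from -0.038 to 0.022 for Hspa8, -0.050 to 0.054 for Hsph1 and -0.089 to 0.038 for Hspd1. The cause of these shifts was not tested. Probe sets near the table median carry little signal over background, which limits the dim sets of Hspa8, Hspa4 and Dnajb1.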

Other observations

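ER chaperones, which fold secreted proteins such as insulin, were lower in part at 24 h. Of 12 genes, 7 fell and 0 rose at 24 h, against 6.66% of all genes lower, and 2 fell at 48 h, against 5.27%. Sdf2l1 fell by 0.91 at 24 h, Calr by 0.85 and Pdia3 by 0.59. At 48 h Calr fell by 0.61, while Sdf2l1 differed by -0.29 (adjusted p 0.508) and Pdia3 by -0.21 (adjusted p 0.357). The list mean lay between 10.06 and 10.42 at 24 h and between 10.38 and 10.81 at 48 h, against 10.63 to 10.75 at 0 h.

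Of 10 immediate early genes, 2 rose at each time, against 5.44% of all genes at 24 h and 6.45% at 48 h, and 0 fell, against 6.66% and 5.27%. At each time 5 of the 10 had an unadjusted p under 0.05 by limma. Atf3 rose by 0.64 at 24 h and by 0.48 at 48 h (adjusted p 0.0499), Jun rose by 0.60 at 24 h, and Egr2 rose by 0.75 at 48 h. The widest differences in the list were downward and did not pass, and these genes are named after their values were seen: Fos differed by -1.41 at 24 h (adjusted p 0.0892) and -1.13 at 48 h (0.184), Egr1 by -1.14 (0.225) and -1.55 (0.0735), and Nr4a1 by -0.77 (0.0896) and -0.82 (0.0670).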
